A study of Oreochromis niloticus with 12 samples.

Results

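The genes whose RNA moved in the same direction in testis and in ovary, between Nile tilapia (Oreochromis niloticus) labelled SF1-suppressed and control fish, were examined in 12 RNA-seq libraries of whole gonad tissue. There were 3 libraries in each of 4 groups, which were control testis, testis labelled SF1-suppressed, control ovary and ovary labelled SF1-suppressed. According to the labels, eggs had been given fragments of antisense RNA directed at SF1 through the opening by which sperm enter. Control eggs had received the same transfection reagent with ultrapure water or with a blank plasmid, and the labels do not tell which of these each control library came from, nor which antisense fragment each suppressed-labelled library came from. All fish were raised for 30 days in a small and then in a large circulating system, within a culture of 150 days, and were sampled at sexual maturity. Whether a library stands for 1 fish or for several is not stated, so the p-values below measure only the spread between these libraries, which may be technical. The hour at which the gonads were taken is not given for any library.

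For each gene the change in testis and the change in ovary were averaged in a fit of all 12 libraries with one mean per group, and genes with the same sign in both gonads were kept. Of 22283 genes in the table, 11586 had an FPKM (fragments scaled to transcript length and library size) of at least 1 in at least 3 testis and at least 3 ovary libraries and were tested. Of these, 6779 (58.5%) had the same sign in both gonads. A gene is said below to have risen or fallen on average when its adjusted p in that fit was under 0.05 (edgeR quasi-likelihood test, Benjamini-Hochberg adjustment over all genes tested) and its sign was the same in both gonads. It is said to have passed both gonad tests when separate fits of the 6 testis and of the 6 ovary libraries, which share no library, each gave an adjusted p under 0.05 in the same direction.

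SF1, the product of nr5a1, is a nuclear receptor known for switching on genes of steroid hormone synthesis and for its part in forming the gonads and the adrenal (interrenal) tissue of vertebrates. It acts in the steroid-producing and supporting somatic cells of testis and ovary, which surround the germ cells. Testis and ovary share this cell plan, with Leydig and Sertoli cells on one side, theca and granulosa cells on the other, and germ cells that divide, enter meiosis and become sperm or eggs.

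The libraries held 36.8 to 60.5 M counts. Suppressed-labelled testis replicate 3 stood apart from its group, with a biological coefficient of variation of 32.1 and 29.4% in the pairs it formed with the other two libraries, against 12.5% between those and 8.55 to 15.9% in pairs of the other groups. Markers followed the tissue labels: the male factor dmrt1 stood at 261 to 279 FPKM in control testis and 0.817 to 1.34 in control ovary, and the egg gene zar1 at 4.79 to 5.05 and 894 to 1037. The oocyte factor figla was an exception, with 38.5 to 42.9 FPKM in control testis and 20.9 to 21.3 in control ovary. The targeted gene nr5a1 (ENSONIG00000020218, GL831302.1, from 867944 to 883455, plus strand) held 9.26, 11.8 and 17.9 FPKM in control testis and 23.7, 24.3 and 6.34 in suppressed-labelled testis. In the other gonad it held 1.37, 1.95 and 2.80 in control ovary and 1.35, 2.95 and 1.73 in suppressed-labelled ovary. The groups overlapped in both gonads. In testis only suppressed-labelled replicate 3 lay below all 3 control libraries. In ovary only suppressed-labelled replicate 1 did, at 1.35 against a lowest control of 1.37. Averaged over the gonads, the suppressed-labelled libraries were 0.14 higher on the log2(FPKM + 1) scale, with 0.30 in testis and -0.02 in ovary (exact two-sided permutation test within gonads, p = 0.72 over 400 arrangements, of which the smallest possible p is 0.005). Without suppressed-labelled testis replicate 3 the average was 0.43 (exact p = 0.16), and without replicate 1 or replicate 2 of that group it was -0.005 and -0.014 (exact p = 0.985 and 0.975). The level of the targeted RNA thus did not bear out the label, and each direction below is between the libraries labelled SF1-suppressed and the control libraries.

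Between labels 3467 genes passed the average test (29.9% of those tested). Of these, 1595 rose in both gonads (13.8% of genes tested) and 1320 fell (11.4%), while 552 had opposite signs in the gonads. The split of risen and fallen genes depended on the scaling: with total counts in place of TMM factors, which moved the median change of all genes by -0.10, 812 rose and 2281 fell. A large part of the average calls came from one gonad. Of the 2915, 373 passed the test in both gonads, 1541 in ovary alone, 320 in testis alone and 681 in neither. In 480 of them the smaller of the testis and ovary changes was under 0.1 on the log2 scale, and 576 passed the test of the difference between the testis and the ovary change.

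The stricter set was small. On their own, 1082 genes (9.34%) passed in testis and 3969 (34.3%) in ovary. Both tests were passed by 179 genes that were higher in both gonads (1.54%) and 194 that were lower in both (1.67%), against 144 in opposite directions (1.24%). These 373 made up 34.5% of the testis calls and 9.40% of the ovary calls. The median changes of the 179 were 0.78 in testis and 0.66 in ovary, and those of the 194 were -0.98 and -0.84; since both tests chose the genes, these medians only describe them. In 96 of the 373 the testis and the ovary change also differed from each other (17.3% of all genes tested did). Both changes reached 1 on the log2 scale in 44 higher and 55 lower genes. The size of this set moved with the testis libraries. Without suppressed-labelled testis replicate 3, 350 genes were higher and 338 lower in both. Without control testis replicate 1, 2 or 3 the numbers were 52, 35 and 44 higher and 70, 49 and 59 lower, without suppressed-labelled testis replicate 2 they were 68 and 83, and without its replicate 1, 114 were higher.

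**Figure D1:**
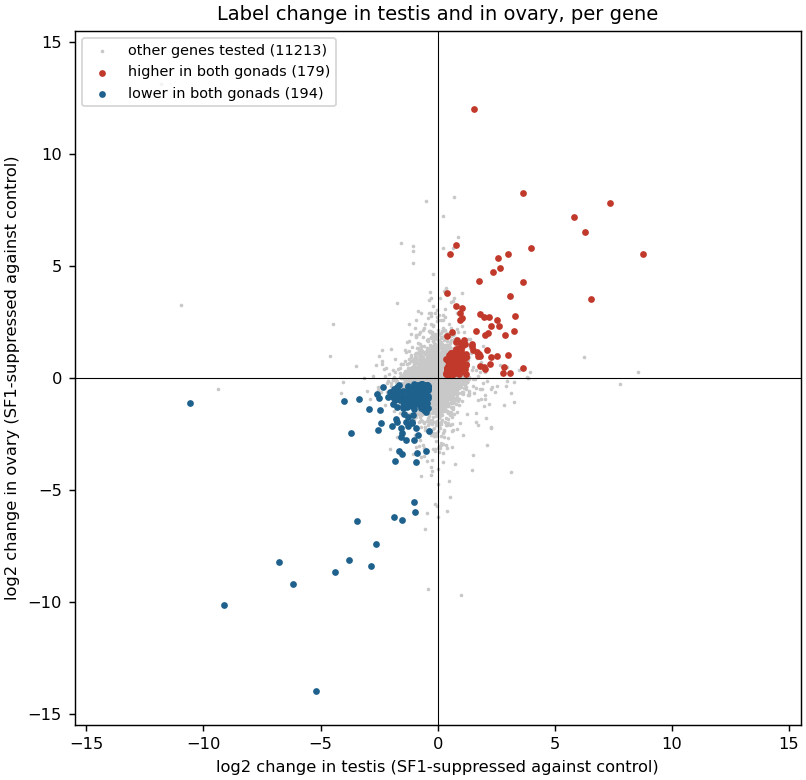
Each point is 1 of 11586 genes tested, with its log2 change between the SF1-suppressed and the control label in testis (x axis) and in ovary (y axis). The 179 genes past both gonad tests and higher in both are red, the 194 lower in both are blue, and the remaining genes are grey. The 144 genes past both tests in opposite directions are among the grey ones. Both tests chose the coloured genes, so their place away from 0 on the same-sign side follows from that choice. Most grey genes lie close to 0. Over all genes tested the Pearson correlation of the testis and ovary changes was 0.24.

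On TMM-scaled counts the 3 libraries of one label stood apart from the 3 of the other in both gonads for 816 genes in the higher direction (7.04%) and 669 in the lower (5.77%), and for 742 (6.4%) in opposite directions. The higher genes were more abundant than the lower ones in the stricter set, with median levels of 29.6 and 8.50 FPKM over the 12 libraries, against 17.6 for all genes tested. They were also shorter, at 1972 and 2978 bases as counts and FPKM together imply, against 2282. Genes without a symbol made up 62 of the 373 (16.6%) and 8.90% of all genes tested.

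Among genes with a symbol of their own that passed both gonad tests, those with the largest value of the smaller of both changes were, in the higher direction, si:ch211-203k16.3, zgc:136858, acta1a, CFI, KCNG1, icn, slc25a24l, lrrc3ca, nat9, DENND6A, bmp8a and aqp1a.1. On TMM-scaled counts the labels did not overlap in either gonad in any of them, and in deposited FPKM only aqp1a.1 overlapped, in testis. Both tests and the size of the changes chose these genes, so the separation only describes them. The range was from near absence to clear expression for the first of them: si:ch211-203k16.3 (GL831215.1, from 2640713 to 2645194, minus strand) stood at 0.111, 0 and 0.0565 FPKM in control testis and 4.43, 4.19 and 3.66 in suppressed-labelled testis. In ovary it had 0, 0 and 0.0346 in control ovary and 1.35, 1.19 and 1.42 in suppressed-labelled ovary. A total of 12 counts in control testis and 4 in control ovary lie behind the low values, so its changes of 6.28 (SE 0.68) in testis and 6.52 (SE 0.64) in ovary rest on few reads on the control side. The gene zgc:136858 (GL831160.1, from 2594336 to 2603792, minus strand) behaved likewise, with 0.310, 0.161 and 0 FPKM in control testis and 2.03, 2.65 and 2.54 in suppressed-labelled testis, and with 0.111, 0.0796 and 0 in control ovary and 3.22, 3.99 and 3.48 in suppressed-labelled ovary.

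Complement factor I (CFI; GL831291.1, from 457688 to 474787, plus strand), a protease that inactivates cleaved complement components, held 0.0853, 0.0537 and 0 FPKM in control testis and 3.86, 4.49 and 4.90 in suppressed-labelled testis. It held 0.0725, 0.0620 and 0.186 in control ovary and 1.17, 1.19 and 1.28 in suppressed-labelled ovary. Every suppressed-labelled library was over every control library, and the change was larger in testis, at 6.54 (SE 0.64) in testis and 3.52 (SE 0.38) in ovary (adjusted p of the difference = 0.0182). KCNG1, a subunit that modifies voltage-gated potassium channels, rose from 0.254, 0.648 and 0.508 to 3.01, 4.42 and 3.83 FPKM in testis and from 1.17, 0.624 and 1.06 to 12.3, 11.2 and 10.6 in ovary, an average change of 3.37 (SE 0.22, adjusted p = 4.96e-07). The S100-type calcium-binding protein ictacalcin (icn) rose by 3.30 (SE 0.37) in testis and 2.77 (SE 0.36) in ovary, with suppressed-labelled libraries at 10.4 to 17.0 and 9.30 to 18.1 FPKM. The gene slc25a24l, a relative of a mitochondrial carrier of ATP and phosphate, went up by 2.66 (SE 0.51) in testis and 4.92 (SE 0.76) in ovary.

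DENND6A, an exchange factor of an endosomal Rab GTPase, had 1.68, 1.71 and 1.59 FPKM in control testis and 5.99, 5.85 and 6.39 in suppressed-labelled testis, and 1.39, 0.805 and 1.02 in control ovary and 6.70, 6.41 and 7.36 in suppressed-labelled ovary. Its average change was 2.36 (SE 0.15, adjusted p = 3.55e-07). The TGF-beta family ligand bmp8a, whose mouse relatives act in the male germ line, rose from 1.22 ± 0.415 to 3.98 ± 0.571 FPKM in testis and from 2.23 ± 0.517 to 15.3 ± 1.73 in ovary (SD, n = 3). The leucine-rich repeat gene lrrc3ca rose by 2.27 (SE 0.31) in testis and 2.33 (SE 0.24) in ovary and the acetyltransferase-family gene nat9 by 2.17 (SE 0.34) in testis and 2.72 (SE 0.54) in ovary. The water channel aqp1a.1 had 14.04, 24.7 and 30.3 FPKM in control and 73.3, 76.6 and 29.5 in suppressed-labelled testis, where replicate 3 lay just under the highest control (testis adjusted p = 0.0494). The skeletal muscle actin acta1a is described with the muscle markers below. The average calls of all 12 genes held in the 12 fits that left out 1 library each. The calls in both gonads held in all 12 fits for si:ch211-203k16.3, CFI, KCNG1, icn, lrrc3ca and DENND6A, and in 7 to 10 of them for the other 6, and the highest adjusted p over those fits was under 0.05 in ovary for all 6.

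Of genes without a symbol, the pair with the largest shared changes in the higher direction lay next to each other on scaffold GL831326.1. ENSONIG00000003145 (GL831326.1, from 52435 to 54455, plus strand) held 0.433, 0.9496 and 1.40 FPKM in control testis and 84.5, 62.8 and 6.84 in suppressed-labelled testis, and 1.39, 1.30 and 1.46 in control ovary and 201, 202 and 182 in suppressed-labelled ovary. ENSONIG00000003148 (GL831326.1, from 63288 to 76267, plus strand) held 0.0984, 0.0246 and 0.0345 FPKM in control testis and 15.8, 12.1 and 1.68 in suppressed-labelled testis, and 0.280, 0.106 and 0 in control ovary and 29.2, 28.2 and 28.4 in suppressed-labelled ovary. In both genes suppressed-labelled testis replicate 3 was the lowest of its group and was still over all controls. The files and the annotation used here give no name for either.

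**Figure D2:**
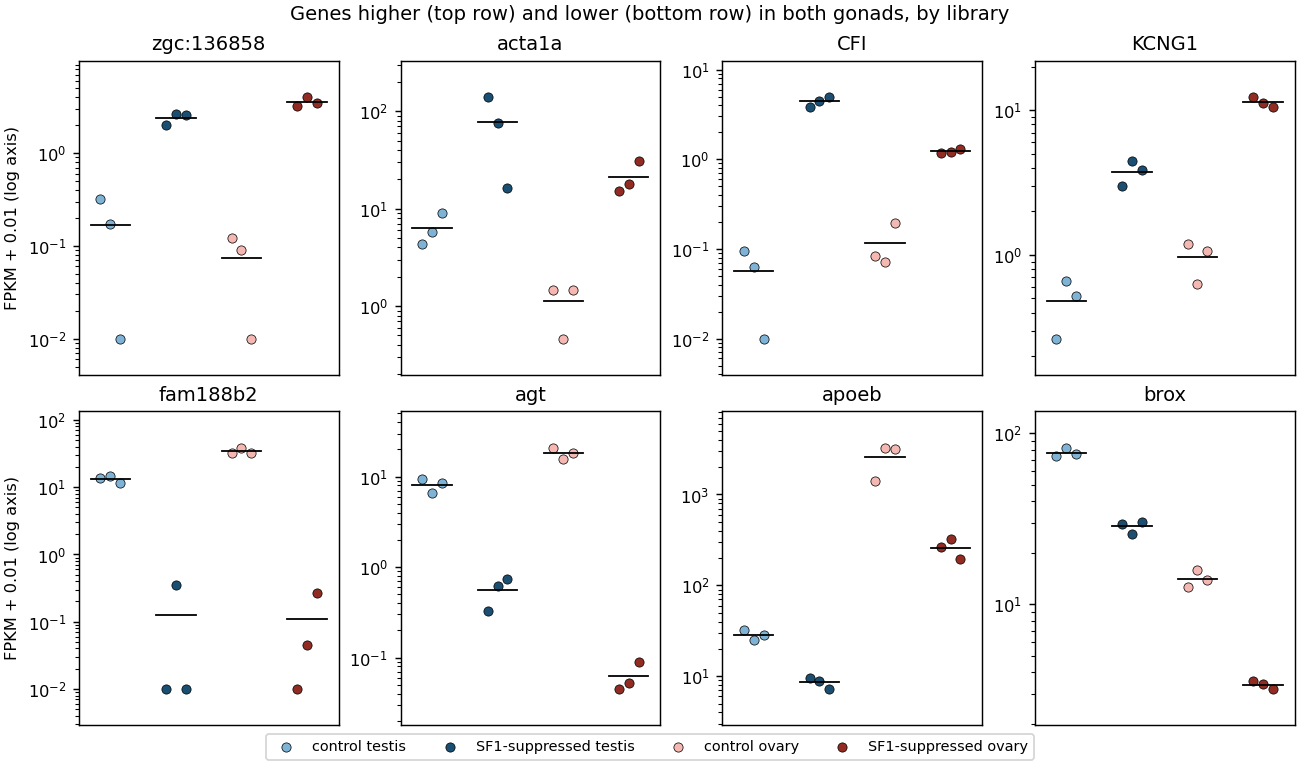
FPKM + 0.01 on a log axis for 4 genes higher and 4 genes lower in both gonads; each point is 1 library (replicates 1 to 3 from left to right in a group), each bar the mean of 3, and the panels have different axes. In every panel the points of the suppressed-labelled group lie on one side of the control group in testis and in ovary. The genes were chosen by both tests, so this separation only describes them.

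In the lower direction the rule named fam188b2, si:zfos-1011f11.1, agt, kcnh4b, si:ch73-194h10.2, psmb8a, trpc2b, apoeb, bmp2b, ntn2, ptgdsb.1 and brox. The labels again did not overlap in either gonad for any of them, on TMM-scaled counts and in FPKM. This too only describes genes that the same values had chosen. The gene fam188b2 (GL831398.1, from 470015 to 474406, minus strand) had 13.9, 14.6 and 11.7 FPKM in control testis and 0, 0.346 and 0 in suppressed-labelled testis. In ovary it had 32.4, 38.7 and 32.3 in control ovary and 0, 0.0354 and 0.260 in suppressed-labelled ovary. It was at 0 in 3 of the 6 suppressed-labelled libraries, and the control groups held 2077 counts in testis and 6650 in ovary. The uncharacterised si:zfos-1011f11.1 (GL831173.1, from 4339778 to 4343414, minus strand) stood at 1.53 to 2.13 FPKM in control and 0 to 0.0739 in suppressed-labelled testis. In ovary it stood at 15.7 to 18.98 FPKM in control and was at 0 counts in all 3 suppressed-labelled libraries, at least 2207-fold lower against a floor of 3 counts summed over the 3 libraries; such floors cover counting error alone.

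Angiotensinogen (agt; GL831135.1, from 2181073 to 2183418, plus strand), the precursor of the angiotensin peptides, fell from 9.34, 6.53 and 8.55 to 0.316, 0.612 and 0.726 FPKM in testis. In ovary it fell from 20.9, 15.6 and 18.3 to 0.0349, 0.0428 and 0.0804. The ovary change was the larger, with -3.77 (SE 0.37) in testis and -8.15 (SE 0.26) in ovary (adjusted p of the difference = 0.000104). Potassium channel kcnh4b fell from 3.92 ± 0.476 to 0.333 ± 0.0488 FPKM in testis and from 2.45 ± 0.207 to 0.0261 ± 0.0147 in ovary (SD, n = 3). The cation channel trpc2b fell by 1.83 in testis and 3.73 in ovary on the log2 scale (SE 0.19 and 0.28). The uncharacterised si:ch73-194h10.2 had 3.09 to 3.42 FPKM in control and 0.331 to 0.624 in suppressed-labelled testis, and 1.81 to 2.20 and 0 to 0.00788 in ovary, where 8 counts in all were left.

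Apolipoprotein E (apoeb), a lipid carrier, had 32.0, 25.0 and 28.2 FPKM in control testis and 9.60, 8.87 and 7.23 in suppressed-labelled testis, and 1395, 3276 and 3141 in control ovary and 264, 322 and 195 in suppressed-labelled ovary. It fell in both gonads, with an average change of -2.43 (SE 0.20, adjusted p = 4.02e-06). As apoeb also marks liver, the liver markers bear on it. Of 36 in the table, 20 were under 1 FPKM in every library, fibrinogen genes included. Their summed level was 43.1 to 52.0 FPKM in control against 23.4 to 25.5 in suppressed-labelled testis, and 1645 to 3733 against 336 to 458 in ovary. These sums include apoeb, which made up most of them in control testis and in ovary, so their fall is not separate from its own. Of the 3 tested, apoeb included, 1 rose and 2 fell on average. The marker apoa1a, too low in testis to be tested, averaged 258 FPKM in control and 10.8 in suppressed-labelled ovary. The part of the liver markers in the result was not tested. In such whole tissue, fewer cells of a type and less RNA per cell cannot be told apart. Prostaglandin D synthase (ptgdsb.1) fell from 108, 120.3 and 113 to 10.5, 14.6 and 17.0 FPKM in testis and from 12.1, 18.8 and 20.9 to 7.004, 7.14 and 4.64 in ovary. Here the testis change was the larger, with -2.92 (SE 0.20) in testis and -1.39 (SE 0.25) in ovary (adjusted p of the difference = 0.00678).

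Both named BMP ligands moved, in opposite directions, since bmp2b fell from 1.40 ± 0.0796 to 0.443 ± 0.0449 FPKM in testis and from 1.34 ± 0.0810 to 0.263 ± 0.0831 in ovary (SD, n = 3). Its values came from 387 and 470 counts in the control groups. The netrin ntn2, of a family of guidance cues, fell by 1.43 and 1.59 (SE 0.27 and 0.13), and brox, which carries a BRO1 domain of the ESCRT sorting machinery, by 1.34 and 1.99 (SE 0.12 and 0.14). The brox values were close within groups, at 73.9, 82.4 and 75.4 FPKM in control testis and 29.5, 25.8 and 30.4 in suppressed-labelled testis, and 12.5, 15.9 and 13.9 in control ovary and 3.56, 3.39 and 3.19 in suppressed-labelled ovary. The average calls of these 12 genes held in all fits without 1 library. Calls in both gonads held in 8 of 12 such fits for bmp2b and ntn2, in 10 for psmb8a, and in all 12 for the other 9.

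At 1 FPKM or more in all 6 control and under 0.1 FPKM in all 6 suppressed-labelled libraries stood 3 genes of the whole table, and 0 did so the other way round. They were si:zfos-1011f11.1 and the unnamed ENSONIG00000008284 and ENSONIG00000008318. ENSONIG00000008284 (GL831633.1, from 178339 to 181102, minus strand) had 2.05, 1.83 and 2.46 FPKM in control testis and 2.75, 4.17 and 3.96 in control ovary, and 0 counts in all 6 suppressed-labelled libraries. That was at least 76.8-fold lower in testis and at least 152-fold lower in ovary, against 3 counts over a group. ENSONIG00000008318 (GL831926.1, from 5567 to 7252, plus strand) had 3.65, 2.60 and 3.21 FPKM and 6.05, 12.7 and 9.41 in the control groups, and 10 and 4 counts in all in the suppressed-labelled ones.

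The shared genes were spread over the genome as the table's scaffolds show it. Of 70 scaffolds with at least 50 genes tested, the median held 2.55% of genes past both gonad tests in one direction. The highest share, 13.8% (8 of 58), was on GL831200.1, and the next was 7.69%. The 8 genes there lay between 308751 and 3604350; this scaffold was singled out after its value was seen.

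Clock genes were mostly lower where they changed. The circadian clock of vertebrates is a loop in which CLOCK and BMAL (arntl) proteins switch on period, cryptochrome, nr1d and bHLHe40-type repressors and the D-box factors of the TEF, HLF and DBP kind. From 46 clock genes listed, 35 were tested, of which 1 rose and 13 fell on average (2.86 and 37.1%, against 13.8 and 11.4% of all genes). The median change was -0.45 in testis and -0.16 in ovary, against 0.00 and -0.00 for all genes. The same sign in both gonads was seen in 18 of the 35, against 58.5% of all genes. Both gonad tests were passed by 1 gene in the higher and 4 in the lower direction, against 1.54 and 1.67% of all genes, and 16 members differed between the gonads, against 17.3%. In ovary alone 4 members rose and 9 fell, and in testis 1 and 11; of all genes 34.3% passed in ovary and 9.34% in testis.

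A copy of arntl2, a BMAL protein of the activating arm, fell from 7.57, 9.54 and 10.5 to 3.26, 3.96 and 2.99 FPKM in testis and from 6.38, 6.19 and 6.53 to 0.569, 1.03 and 1.08 in ovary. The repressor per1b fell from 9.38, 11.1 and 12.4 to 7.96, 6.15 and 4.86 FPKM and from 14.5, 14.7 and 16.5 to 5.61, 6.75 and 6.35. In neither gene did the labels overlap in FPKM, and the average changes were -2.04 (SE 0.14, adjusted p = 1.08e-06) and -0.95 (SE 0.10, adjusted p = 3.82e-05). The D-box factor tefb fell by 1.70 in testis and 0.59 in ovary (SE 0.27 and 0.20). The copy BHLHE40 of the repressor DEC1 fell by 1.75 and 0.61 (SE 0.16 and 0.20). Its other copy, bhlhe40, fell in testis and stood at a change of 0.03 (SE 0.12) in ovary. The repressor nr1d2a fell on average by 0.60 (SE 0.07), mostly in testis, with -0.99 (SE 0.09) in testis and -0.25 (SE 0.09) in ovary. Against the others, a copy of fbxl3b, of the F-box family that marks cryptochromes for breakdown, rose from 25.3 ± 0.981 to 112 ± 16.6 FPKM in testis and from 11.3 ± 0.377 to 16.4 ± 1.21 in ovary (SD, n = 3). A copy of per2, also of the repressing arm, went opposite ways, with -1.31 (SE 0.20) in testis and 0.63 (SE 0.09) in ovary. The per1b call in both gonads held in 8 of 12 fits without 1 library, and those of arntl2 and fbxl3b in all 12.

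The list of glucocorticoid and stress hormone genes holds hormones, receptors and an enzyme beside genes that corticoids induce; it shares per1b with the clock list and klf9 with the immediate early list. From 28 in the table, 11 were tested, of which 2 rose and 5 fell on average (18.2 and 45.5%, against 13.8 and 11.4%). The medians were -0.70 in testis and -0.30 in ovary. Past both gonad tests were 3 genes, all lower, against 1.67% of all genes. They were per1b, klf9 and cebpb. Of these, klf9 held both calls in 10 and cebpb in 8 of 12 fits without 1 library. The transcription factor klf9, which glucocorticoids induce in mammals and fish, fell from 17.4, 19.1 and 29.6 to 5.04, 3.82 and 2.09 FPKM in testis and from 4.37, 5.43 and 4.54 to 2.33, 2.64 and 2.44 in ovary. The fall was larger in testis, with -2.50 (SE 0.34) in testis and -0.88 (SE 0.23) in ovary (adjusted p of the difference = 0.014). The transcription factor cebpb held 97.9, 103 and 111 FPKM in control testis and 50.2, 47.3 and 35.1 in suppressed-labelled testis, and 59.7, 88.0 and 87.1 in control ovary and 42.0, 59.7 and 34.9 in suppressed-labelled ovary; the ovary groups met at the highest suppressed-labelled and the lowest control library. Of the members that rose, a copy of the mTOR inhibitor ddit4 passed the test in ovary and not in testis. It changed by 0.38 (SE 0.33) in testis and 3.76 (SE 0.35) in ovary. The cortisol-inactivating enzyme hsd11b2 passed in testis and not in ovary, with 1.73 (SE 0.41) in testis and 0.07 (SE 0.21) in ovary. It held 44.2, 52.8 and 70.0 FPKM in control testis and 218, 242 and 66.6 in suppressed-labelled testis. There replicate 3 lay within the control range.

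Of 32 immediate early genes tested of 49 in the table, 3 rose and 7 fell on average (9.38 and 21.9%, against 13.8 and 11.4%). The medians were -0.60 in testis and -0.05 in ovary. In testis alone 0 rose and 9 fell, while in ovary 7 rose and 8 fell. Of all genes 9.34% passed in testis and 34.3% in ovary. The change differed between the gonads in 9 members, against 17.3% of all genes. Lower in both gonad tests were klf9, socs3b, fosl2 and a copy of jun, against 1.67% of all genes. The AP-1 subunit jun fell from 36.9, 37.9 and 39.0 to 14.9, 14.8 and 9.19 FPKM in testis and from 7.83, 11.7 and 12.5 to 6.00, 5.11 and 4.50 in ovary, and its calls held in all 12 fits without 1 library. Cytokine feedback inhibitor socs3b had -1.64 (SE 0.21) in testis and -0.32 (SE 0.11) in ovary (adjusted p of the difference = 0.00187), and its calls in both gonads held in 7 of the 12. The MYC relative mych fell in ovary, from 139, 131 and 133 to 56.5, 63.5 and 61.9 FPKM, and stood at 14.3, 16.3 and 19.5 against 12.4, 8.42 and 6.73 in testis (adjusted p = 0.0773). Neither the hour of sampling nor the handling of the fish is given per library.

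**Figure D3:**
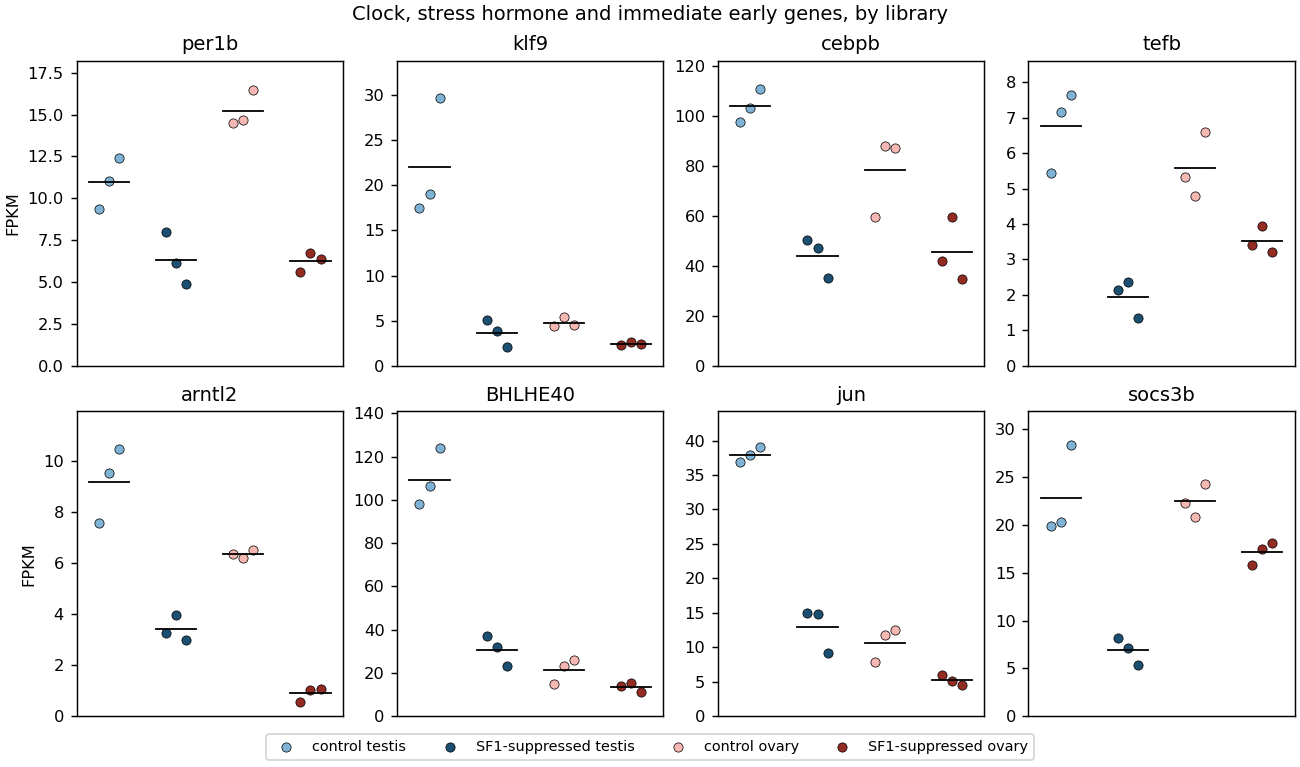
FPKM of 8 clock, stress hormone and immediate early genes on axes that start at 0; each point is 1 library (replicates 1 to 3 from left to right in a group) and each bar the mean of 3. The 8 were picked among members that fell. Members that rose or split, such as fbxl3b, ddit4, hsd11b2 and per2, are not shown. Suppressed-labelled points lie below the control points in testis in every panel. In ovary they do so in every panel but cebpb, where the groups meet, and BHLHE40, where 1 point reaches into the control range.

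From 114 genes of DNA replication and the cell cycle listed, 111 were tested, of which 42 rose and 1 fell on average (37.8 and 0.901%, against 13.8 and 11.4%). The median change was 0.28 in testis and 0.04 in ovary. In testis alone 15 members rose and 1 fell, while in ovary 28 rose and 14 fell. Of all genes 9.34% passed in testis and 34.3% in ovary. The change differed between the gonads in 19 members, against 17.3% of all genes. All 7 members past both gonad tests were higher, against 1.54% of all genes. They were birc5b, ccne2, rrm1, pcna, rpa3, mcm4 and mcm2. Ribonucleotide reductase subunit rrm1, which makes the building blocks of DNA, held 74.1, 76.4 and 70.7 FPKM in control testis and 122, 110.1 and 115 in suppressed-labelled testis. It held 70.7, 69.4 and 71.2 in control ovary and 108, 103 and 106 in suppressed-labelled ovary. The groups were far apart relative to their spread, and the changes were 0.74 (SE 0.10) in testis and 0.66 (SE 0.05) in ovary (difference 0.06, adjusted p = 0.759). The replication clamp pcna rose from 154, 137 and 125 to 227, 219.7 and 249 FPKM in testis and from 135, 144 and 126 to 175, 158 and 172 in ovary. A copy of cyclin E2, ccne2, of the entry into S phase, rose by 0.78 (SE 0.11) in testis and 0.92 (SE 0.19) in ovary. The survivin gene birc5b, of the chromosomal passenger complex, rose by 1.82 (SE 0.45) in testis and 0.54 (SE 0.05) in ovary, and rpa3, of the single-strand binding complex RPA, by 0.61 (SE 0.15) in testis and 0.29 (SE 0.07) in ovary. Of the MCM genes, mcm2 and mcm4 passed both gonad tests. The genes mcm3, mcm5, mcm6, mcm7 and mcm8 rose on average only, with testis changes of 0.13 to 0.41 and ovary changes of 0.13 to 0.29. The replication factor C genes rfc2 to rfc5 rose on average too. The member that fell was prc1b, of the mitotic spindle midzone, with -0.45 (SE 0.09) in testis and -0.06 (SE 0.06) in ovary. With total-count scaling 27 rose and 7 fell and the ovary median was -0.03. Without suppressed-labelled testis replicate 3, 42 rose and 4 fell.

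**Figure D4:**
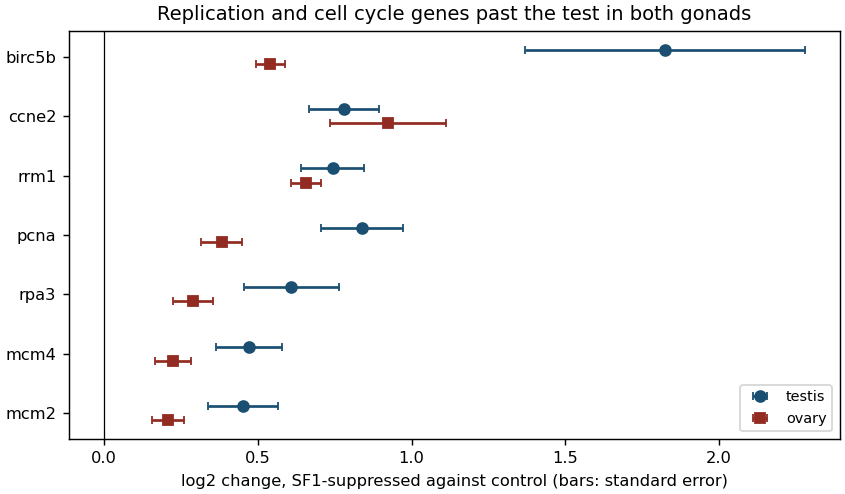
Log2 change between labels, with its standard error, in testis (circles) and ovary (squares) for the 7 replication and cell cycle genes past both gonad tests. All lie to the right of 0, and the testis value is the larger in every gene but ccne2. Both tests chose these genes, so their distance from 0 only describes them.

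Of 29 germ line genes tested, 7 rose and 0 fell on average (24.1 and 0%, against 13.8 and 11.4%). In testis alone 2 rose and 2 fell, and in ovary 9 and 0. Of all genes 9.34% passed in testis and 34.3% in ovary. The same sign in both gonads was seen in 14 members, against 58.5% of all genes. The genes ddx4 and WDR77 were higher in both gonad tests, against 1.54% of all genes. The germ cell RNA helicase ddx4 (vasa) rose from 543, 495 and 460.3 to 827, 836 and 982 FPKM in testis and from 147, 153 and 153 to 369.6, 371 and 367 in ovary, an average change of 1.15 (SE 0.08, adjusted p = 6.23e-07). WDR77, which works with the arginine methyltransferase PRMT5, rose by 0.40 (SE 0.10) in testis and 0.40 (SE 0.05) in ovary; the calls in both gonads held in 10 of 12 fits without 1 library for ddx4 and in 7 for WDR77. The piRNA pathway genes piwil1 and tdrd1 rose on average, with 0.29 (SE 0.11) in testis and 0.39 (SE 0.05) in ovary, and with 0.18 (SE 0.11) in testis and 0.32 (SE 0.05) in ovary, where the testis values did not pass on their own (adjusted p = 0.125 and 0.313). The list medians were small, at 0.05 in testis and 0.11 in ovary, and with total-count scaling they were -0.06 and 0.04, while 3 rose and 1 fell.

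Of 19 meiosis genes tested 6 rose and 0 fell on average (31.6 and 0%, against 13.8 and 11.4%), 0 of them past both gonad tests. The list was mixed: in ovary alone 6 rose and 5 fell, and in testis 0 and 1. Of all genes 34.3% passed in ovary and 9.34% in testis. The same sign in both gonads was seen in 9 members, against 58.5% of all genes. The change differed between the gonads in 6, against 17.3%. The double-strand break enzyme spo11 had 0.47 (SE 0.16) in testis and 0.33 (SE 0.09) in ovary, and the hotspot methyltransferase prdm9 0.22 (SE 0.11) in testis and 0.34 (SE 0.12) in ovary. Of 16 oocyte genes 6 rose and 0 fell on average (37.5 and 0%, against 13.8 and 11.4%), again with 0 past both. In ovary alone 11 oocyte genes rose and 0 fell, and in testis 0 and 0. Over the control testis mean, the oocyte list median was 0.07, -0.03 and 0.45 (log2) in suppressed-labelled testis replicates 1 to 3. It was 0.09 in control testis replicate 1. The egg coat gene zp2.1 held 0.489, 1.81 and 1.05 FPKM in control and 4.54, 1.29 and 3.83 in suppressed-labelled testis, against 1015, 975 and 1005 and 1260.2, 1180.4 and 1266 in ovary. YBX2, which packs stored messenger RNA in germ cells, had 0.10 (SE 0.14) in testis and 0.46 (SE 0.06) in ovary, and the importin kpna7 0.66 (SE 0.26) in testis and 0.32 (SE 0.06) in ovary. With total-count scaling 3 meiosis and 2 oocyte genes rose. The count of risen oocyte genes was 3 without control testis replicate 2 or suppressed-labelled ovary replicate 3 and 2 without control testis replicate 3.

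All 77 nuclear genes of the respiratory chain in the table were tested, of which 40 rose and 2 fell on average (51.9 and 2.6%, against 13.8 and 11.4%), with medians of 0.41 in testis and 0.13 in ovary. Past both gonad tests were 4 higher and 1 lower gene, against 1.54 and 1.67% of all genes. In testis alone 8 members rose and 1 fell, and in ovary 30 and 3. Of all genes 9.34% passed in testis and 34.3% in ovary. Succinate dehydrogenase subunit sdha rose from 54.4, 51.3 and 53.2 to 76.7, 69.6 and 75.6 FPKM in testis and from 30.2, 32.9 and 30.9 to 46.5, 46.5 and 48.3 in ovary. The ATP synthase subunit atp5e rose by 0.94 (SE 0.23) in testis and 1.11 (SE 0.11) in ovary, and the calls in both gonads held in 9 of 12 fits without 1 library for sdha and in 8 for atp5e. Against them, another ATP synthase subunit, atp5o, fell from 463, 406 and 414 to 299, 289 and 273 FPKM in testis and from 281, 301 and 268 to 149.7, 147 and 149.5 in ovary, calls that held in 7 of the 12. Most changes of the list were small. Over the control testis mean, the list median was 0.22, 0.23 and 0.65 (log2) in suppressed-labelled testis replicates 1 to 3. It was 0.17 in control testis replicate 1. The count of risen members was not stable. It was 20 with total-count scaling, 26 in an additive fit with one label effect for both gonads, 26 without control testis replicate 2 or suppressed-labelled ovary replicate 3, 24 without control testis replicate 3, 23 without control ovary replicate 3, and 22 without suppressed-labelled ovary replicate 1.

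Of 67 genes for mitochondrial ribosomal proteins 19 rose and 0 fell on average (28.4 and 0%, against 13.8 and 11.4% of all genes). Medians were 0.24 in testis and 0.12 in ovary, and 0 passed both gonad tests. Of 73 for cytosolic ones 16 rose and 0 fell (21.9%), with medians of 0.27 in testis and 0.08 in ovary, and RPL27A, rps12 and rplp0 passed both, calls that held in 9, 8 and 2 of 12 fits without 1 library. RPL27A went from 49.8, 43.9 and 40.7 to 82.1, 79.9 and 129.98 FPKM in testis and from 11.9, 17.5 and 10.9 to 29.8, 28.1 and 22.5 in ovary, and rps12 changed by 0.82 (SE 0.16) in testis and 0.38 (SE 0.09) in ovary. Of 48 proteasome subunits 15 rose and 2 fell (31.2 and 4.17%), with medians of 0.32 in testis and 0.06 in ovary. Past both gonad tests 0 subunits were higher and 1 was lower. Of all genes 1.54% were higher and 1.67% lower past both tests. In testis alone 2 subunits rose and 1 fell, and in ovary 13 and 5, where 9.34 and 34.3% of all genes passed. Suppressed-labelled testis replicate 3 stood highest in all 3 lists, with list medians over the control testis mean of 0.546, 0.452 and 0.579 (log2). Replicates 1 and 2 of that group had 0.064 and 0.117, 0.159 and 0.165, and 0.146 and 0.175. Control testis replicate 1 had 0.119, 0.169 and 0.123. With total-count scaling the risen and fallen members were 6 and 1, 7 and 3, and 8 and 4 in the 3 lists, with testis and ovary medians of 0.13 and 0.04, 0.16 and 0.01, and 0.20 and -0.01. The risen mitochondrial ribosomal proteins were 7 in the additive fit, 12 without control testis replicate 2 or suppressed-labelled ovary replicate 1 and 10 without control testis replicate 3, control ovary replicate 3 or suppressed-labelled ovary replicate 3. The risen cytosolic ones were 10 without control testis replicate 2, control testis replicate 3, control ovary replicate 3 or suppressed-labelled ovary replicate 1 and 27 without control ovary replicate 2.

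One proteasome subunit fell by far more than the others moved. The gene psmb8a (GL831408.1, from 654126 to 666420, plus strand) encodes a catalytic subunit of the immunoproteasome, which cuts peptides for MHC class I and is induced by interferon. It held 22.5, 26.7 and 29.8 FPKM in control testis and 5.07, 6.01 and 1.73 in suppressed-labelled testis, and 13.7, 16.8 and 16.1 in control ovary and 2.99, 3.47 and 2.47 in suppressed-labelled ovary. The labels were well apart in both gonads, with -2.55 (SE 0.39) in testis and -2.31 (SE 0.18) in ovary. Its relative psmb12 fell on average, but through the ovary, with -0.04 (SE 0.26) in testis and -1.59 (SE 0.19) in ovary. These were the 2 that fell of 9 tested genes of MHC and antigen presentation (22.2%, against 11.4% of all genes), where 0 rose. Of 16 interferon-response genes tested of 37 in the table, 1 rose and 4 fell (6.25 and 25%, against 13.8 and 11.4%). Members that were not tested moved both ways. In testis, rsad2 averaged 5.72 FPKM in control and 9.44 in suppressed-labelled libraries, and tlr3 averaged 3.71 and 2.61. The interferon regulatory factor irf2 was lower in both gonad tests, going from 7.86, 7.92 and 9.71 to 5.33, 4.55 and 3.45 FPKM in testis and from 4.71, 5.14 and 5.19 to 3.16, 3.90 and 3.93 in ovary, calls that held together in 5 of 12 fits without 1 library. The average changes of irf7 and irf8 were -1.07 and -0.94 (SE 0.37 and 0.24), of which that of irf7 kept its call in 5 of 12 fits without 1 library.

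Of 22 leukocyte markers tested of 41 in the table, 0 rose and 4 fell on average (0 and 18.2%, against 13.8 and 11.4%). Medians were -0.08 in testis and -0.47 in ovary, and 0 passed both gonad tests. The count of fallen markers was 2 without control testis replicate 3, control ovary replicate 3 or suppressed-labelled ovary replicate 1. The integrin itgb2 fell in ovary, from 31.0, 34.8 and 36.8 to 4.65, 6.44 and 5.14 FPKM, and stood at 7.84, 8.54 and 10.1 against 9.77, 10.5 and 3.56 in testis. The macrophage receptor csf1ra had -1.03 (SE 0.48) in testis and -1.36 (SE 0.28) in ovary. The pan-leukocyte gene ptprc averaged 8.0003 ± 0.908 against 7.79 ± 1.16 FPKM in testis and 4.73 ± 1.90 against 4.20 ± 1.45 in ovary (SD, n = 3), and did not pass the average test. The summed level of the list was 316 to 385 FPKM in control and 299.9 to 510.4 in suppressed-labelled testis, and 336 to 479.8 and 334 to 404 in ovary, where the groups overlapped in both gonads. The part of leukocytes in the fall of the immune genes was not tested.

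Sarcomeric actin genes were among the largest shared rises. The gene acta1a (GL831280.1, from 203308 to 208798, plus strand), an alpha actin of skeletal muscle, held 4.29, 5.76 and 9.08 FPKM in control testis and 139, 75.1 and 16.2 in suppressed-labelled testis. It held 1.45, 0.453 and 1.46 in control ovary and 15.0, 17.9 and 30.9 in suppressed-labelled ovary. The groups did not overlap, but suppressed-labelled testis replicate 3 was at a fraction of the other two. The copy ACTC1, an actin of heart and developing muscle, showed the same order, with 23.8, 33.0 and 49.98 FPKM in control testis and 225, 148 and 44.8 in suppressed-labelled testis, and 8.06, 4.77 and 6.95 in control ovary and 24.9, 16.7 and 30.6 in suppressed-labelled ovary. In that gene replicate 3 lay within the control range of testis in FPKM. ACTA1 rose on average, with 1.39 (SE 0.65) in testis and 1.76 (SE 0.11) in ovary, and the muscle enolase eno3 passed both gonad tests with 0.42 (SE 0.10) in testis and 0.44 (SE 0.05) in ovary; both calls held in 7 of 12 fits without 1 library for ACTC1 and in 7 for eno3. Of 68 genes that the muscle patterns matched in the table, some of them non-muscle or smooth muscle myosins, 27 were under 1 FPKM in every library. Of 11 tested, 4 rose and 1 fell (36.4 and 9.09%, against 13.8 and 11.4% of all genes). The genes named above are those that rose. List medians were 0.42 in testis and 0.12 in ovary. Over the control testis mean, suppressed-labelled testis replicates 1 to 3 had 0.25, 0.39 and -0.59 (log2). Untested members moved both ways. In ovary, tnnt1 averaged 9.05 FPKM in control and 1.08 in suppressed-labelled libraries, and tnnc2 averaged 1.85 and 13.3. The summed level of the 68 genes was 929 to 1281 FPKM in control and 594 to 3743 in suppressed-labelled testis, and 1579 to 1748 and 2460.4 to 2637 in ovary. The part of attached muscle in these rises was not tested.

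Of 16 stroma and smooth muscle genes tested 6 rose and 0 fell on average (37.5 and 0%, against 13.8 and 11.4%). Medians were 0.73 in testis and 0.64 in ovary. Over the control testis mean, the list median was 1.41, 1.06 and -0.86 (log2) in suppressed-labelled testis replicates 1 to 3. The control testis libraries had -0.30, -0.03 and 0.33, so replicate 3 lay below all of them. In testis alone 2 members rose and 1 fell, and in ovary 14 and 1. Of all genes 9.34% passed in testis and 34.3% in ovary. The small proteoglycan decorin (dcn) rose from 93.6, 102 and 119 to 313, 301 and 201 FPKM in testis and from 8.16, 6.93 and 8.85 to 23.2, 23.5 and 15.5 in ovary. Matrix Gla protein (mgp), an inhibitor of calcification, rose from 1.66, 2.22 and 2.43 to 10.997, 7.37 and 10.6 FPKM and from 14.5, 20.4 and 17.1 to 35.2, 36.5 and 23.2. Both kept their calls in both gonads in all 12 fits without 1 library. The collagen gene col1a1 rose in ovary, from 21.5, 21.1 and 32.0 to 87.0, 95.6 and 57.1 FPKM. In testis it stood at 18.5, 23.5 and 29.1 against 85.1, 63.7 and 18.3, where replicate 3 lay below all controls (adjusted p = 0.113). The count of risen stroma genes was 13 without suppressed-labelled testis replicate 3, 3 without replicate 1 or replicate 2 of any of the 4 groups, 3 with total-count scaling, and 3 in the additive fit.

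Of 72 collagen and matrix genes tested, some of them also in the stroma list, 16 rose and 9 fell on average (22.2 and 12.5%, against 13.8 and 11.4%). Medians were 0.02 in testis and 0.34 in ovary. Over the control testis mean, the list median was 0.50, 0.16 and -0.88 (log2) in suppressed-labelled testis replicates 1 to 3. In testis alone 7 members rose and 3 fell, and in ovary 28 and 10, where 9.34 and 34.3% of all genes passed. Higher in both gonad tests were dcn, mgp, adamts15a and thbs4b, against 1.54% of all genes. The matrix protease adamts15a rose by 1.15 (SE 0.22) in testis and 1.53 (SE 0.25) in ovary and the thrombospondin thbs4b by 0.97 (SE 0.16) in testis and 0.54 (SE 0.15) in ovary, and both calls held in 8 and 5 of 12 fits without 1 library. Without suppressed-labelled testis replicate 3, 29 matrix genes rose, and those that fell were 5 without control testis replicate 2 or control ovary replicate 2. In the additive fit 10 rose and 4 fell. The summed level of the stroma list was 774 to 1269 FPKM in control and 609 to 2919.9 in suppressed-labelled testis, and 718 to 811 and 1241 to 1335 in ovary. The labels overlapped in testis and not in ovary.

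Steroid synthesis is the process SF1 is best known for. From 44 genes listed, 29 were tested, of which 5 rose and 2 fell on average (17.2 and 6.9%, against 13.8 and 11.4%). In testis 4 rose and 0 fell, in ovary 5 rose and 8 fell, and 8 differed between the gonads. Of all genes 9.34% passed in testis and 34.3% in ovary, and 17.3% differed between the gonads. Past both gonad tests were 0 members, or 1 by DESeq2, against 1.54% higher and 1.67% lower of all genes. The medians were 0.34 in testis and -0.13 in ovary. The cholesterol transporter stard3 fell on average, with -0.33 (SE 0.12) in testis and -0.48 (SE 0.08) in ovary. The lipoprotein receptor scarb1 and the 5-alpha-reductase srd5a1 rose, with 0.34 (SE 0.11) in testis and 0.28 (SE 0.07) in ovary, and with 0.36 (SE 0.13) in testis and 0.22 (SE 0.06) in ovary. The aromatase cyp19a1a, which makes estrogen, stood at 0.616 to 1.08 against 0.794 to 1.96 FPKM in testis and 67.8 to 104 against 50.5 to 72.2 in ovary, and its changes differed between the gonads, with 0.77 (SE 0.38) in testis and -0.53 (SE 0.16) in ovary (adjusted p = 0.0361). With total-count scaling 3 members rose and 4 fell, those that rose were 3 without control testis replicate 2, suppressed-labelled testis replicate 2, control ovary replicate 1 or suppressed-labelled ovary replicate 2, and 2 rose in the additive fit.

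Of 29 genes of cholesterol synthesis and uptake 3 rose and 4 fell on average (10.3 and 13.8%), near the 13.8 and 11.4% of all genes. The exporter abca1a fell in both gonad tests, from 9.54, 11.6 and 16.9 to 5.81, 6.22 and 3.48 FPKM in testis and from 2.09, 2.03 and 2.93 to 0.882, 1.83 and 0.854 in ovary, calls that held together in 5 of 12 fits without 1 library. Squalene epoxidase sqlea had -1.29 (SE 0.26) in testis and -0.40 (SE 0.14) in ovary. The fallen members were 7 with total-count scaling, 2 in the additive fit, and 2 without control testis replicate 2, control ovary replicate 1, control ovary replicate 2 or suppressed-labelled ovary replicate 1. In lipid metabolism 6 of 55 rose and 11 fell (10.9 and 20%). The triglyceride-making enzyme dgat2 rose from 13.3, 12.02 and 11.6 to 18.2, 18.0 and 23.1 FPKM in testis and from 8.78, 10.7 and 10.1 to 21.1, 21.5 and 24.5 in ovary, calls that held together in 9 of 12 fits without 1 library. A copy of the desaturase fads2 and the elongase elovl7a fell on average through the ovary, with -0.21 (SE 0.25) in testis and -1.75 (SE 0.11) in ovary, and with -0.03 (SE 0.13) in testis and -1.11 (SE 0.05) in ovary. Without suppressed-labelled testis replicate 3, 10 lipid genes rose, and in the additive fit 7 fell.

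Of 19 testis and Sertoli cell factors 3 rose and 6 fell on average (15.8 and 31.6%, against 13.8 and 11.4%). The list was mixed: in testis alone 0 rose and 3 fell, and in ovary 4 and 5. Of all genes 9.34% passed in testis and 34.3% in ovary. The same sign in both gonads was seen in 10 members, against 58.5% of all genes. Both gonad tests were passed by 1 member, in the lower direction, against 1.67% of all genes. The tight junction gene cldn11a, which in testis seals the blood-testis barrier, was the one past both gonad tests, going from 144, 159 and 179.8 to 105, 106 and 87.8 FPKM in testis and from 6.71, 12.6 and 11.3 to 3.55, 4.83 and 2.46 in ovary, calls that held together in 9 of 12 fits without 1 library. The ligand dhh (desert hedgehog), which Sertoli cells send to Leydig cells in mammals, fell on average with -0.59 (SE 0.20) in testis and -0.74 (SE 0.07) in ovary. The chaperone clu fell on average as well, with -3.02 (SE 0.15) in testis and -0.57 (SE 0.22) in ovary, a change that was larger in testis (adjusted p of the difference = 0.000181). The male factor dmrt1 rose on average through the ovary, where it went from 0.958, 0.817 and 1.34 to 3.31, 3.24 and 3.18 FPKM, against 279, 261 and 264 and 283, 291 and 323 in testis. The member gsdf rose on average by 0.67 (SE 0.19) but passed in neither gonad alone. In testis it stood at 431, 463 and 445 against 1280, 1132 and 440 FPKM. The member amh had opposite signs, with -0.65 (SE 0.45) in testis and 0.65 (SE 0.13) in ovary.

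Among 53 tested hormone and growth factor ligands and receptors 2 rose and 8 fell on average (3.77 and 15.1%, against 13.8 and 11.4%). Past both gonad tests were the ligands bmp8a, bmp2b and pdgfaa, against 1.54% higher and 1.67% lower of all genes. The platelet-derived growth factor pdgfaa fell from 2.65, 4.40 and 7.07 to 0.308, 0.312 and 0.181 FPKM in testis and from 8.06, 13.9 and 12.1 to 3.88, 6.44 and 5.60 in ovary, and the testis change was the larger, with -4.01 (SE 0.42) in testis and -1.03 (SE 0.22) in ovary (adjusted p of the difference = 0.00106). With total-count scaling 13 members of the list fell, and without suppressed-labelled testis replicate 3, 5 rose.

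Of 43 genes of the unfolded protein and amino acid response 9 rose and 3 fell on average (20.9 and 6.98%, against 13.8 and 11.4%). The list was mixed, with medians of -0.02 in testis and 0.06 in ovary. In testis alone 4 rose and 5 fell, and in ovary 10 and 4, where 9.34 and 34.3% of all genes passed. The same sign in both gonads was seen in 20 members, against 58.5% of all genes. The change differed between the gonads in 13, against 17.3%. A copy of the endoplasmic reticulum chaperone HSPA5 (BiP) rose from 272, 275 and 257 to 381, 340.4 and 325 FPKM in testis and from 241, 224 and 221 to 284, 284 and 289 in ovary, and calr3b, a calreticulin, by 0.48 (SE 0.12) in testis and 0.40 (SE 0.06) in ovary. The copy SLC3A2 of the heavy chain of amino acid transporters fell from 42.4, 50.2 and 53.8 to 22.2, 23.5 and 15.7 FPKM and from 116, 103 and 104 to 54.6, 39.6 and 54.1. Its calls in both gonads held in all 12 fits without 1 library, and those of HSPA5 in 7. The gene calr3a kept its average call in all 12 of these fits and passed both gonad tests in 0 of them. Its testis change minus its ovary change was -1.66. With total-count scaling 6 members fell.

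The remaining 29 lists are given by the members that rose and fell on average, of those tested, against 13.8 and 11.4% of all genes. They were 8 and 4 of 38 for glycolysis, 15 and 5 of 67 for translation factors, 11 and 2 of 70 for splicing, 17 and 19 of 122 for chromatin, 16 and 7 of 65 for tubulins and kinesins, and 22 and 22 of 176 for ubiquitin conjugation and removal. For heat shock proteins they were 15 and 5 of 78, for antioxidant genes 12 and 6 of 66, for the hypoxia response 1 and 5 of 26, for the p53 response 4 and 4 of 27, for apoptosis 2 and 1 of 26, and for RNA silencing 6 and 2 of 36. Spermatid and flagellum genes had 3 and 8 of 50, granulosa and ovary factors 0 and 1 of 7, NR5A receptors 0 and 1 of 3, Sox, Fox and Gata factors 0 and 3 of 20, Hox genes 0 and 1 of 1, and Wnt and Hedgehog genes 3 and 2 of 18. Cell junction genes had 1 and 8 of 34, complement genes 3 and 1 of 8, genes of selenium, iron and copper 1 and 4 of 29, and housekeeping genes 5 and 0 of 21. Markers of other tissues had 1 and 0 of 4 for erythrocytes, 1 and 2 of 10 for endothelium, 1 and 2 of 7 for adipocytes, 1 and 2 of 3 for liver, 0 and 0 of 1 for exocrine pancreas and intestine, 1 and 0 of 7 for kidney and interrenal tissue, and 1 and 1 of 7 for neurons and glia.

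**Figure D5:**
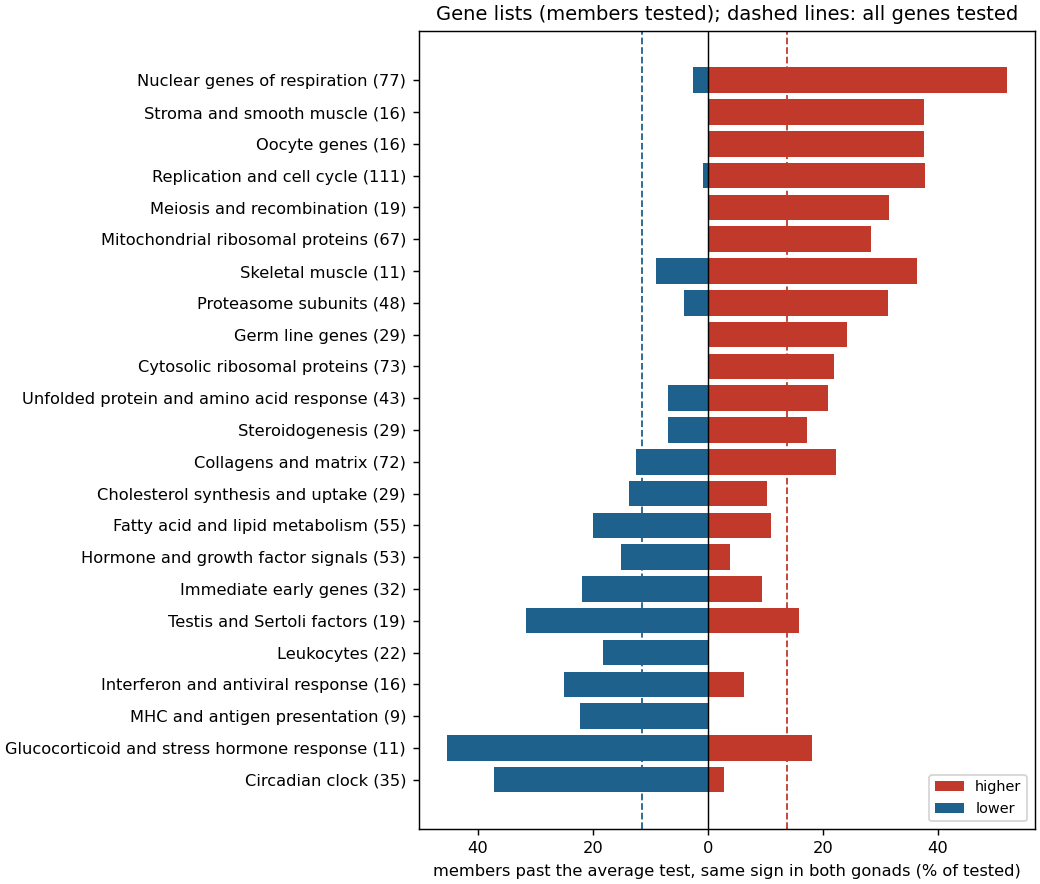
For the 23 gene lists described singly, the bars give the percentage of tested members that rose (right, red) and fell (left, blue) on average with the same sign in both gonads, with the number tested in parentheses; dashed lines mark 13.8 and 11.4% for all genes tested. Respiration stands at the top with 51.9% risen, and the clock list at the bottom with 37.1% fallen.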

How the data were processed

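Gonad RNA of 12 libraries was measured by RNA-seq. The authors deposited 1 table with an estimated count and an FPKM per gene and library, per the file headers; the counts are whole numbers and not normalised. The submitters' processing notes name HISAT and StringTie and no version of either. Build, annotation and strand setting are not given in these sources. Positions are those of the table's scaffolds. A gene with 0 counts is listed there at 0.0001 FPKM, which was read as 0. All value columns matched a sample. No sequence table for these genes was used here. Results for a few genes are not reported here.

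The counts were scaled with TMM factors and tested with edgeR 4.0.16 (quasi-likelihood test, R 4.3.3). The average, each gonad and the difference between gonads were tested as the report says, with log2 changes computed here from the authors' counts. SE is the size of the log2 change divided by the square root of the test's F. Total counts were 36.8 to 60.5 M per library, so that low genes carry most of the counting error. The code was tested on simulated data first. Alternatives were DESeq2 1.42.0, limma 3.58.1 on log2(FPKM + 1) and log2(FPKM + 0.1), other scalings and filters, a replicate block, an additive fit and leaving out each library.

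The members, the 52 gene lists and the rules were chosen with earlier results of these data known, and the 23 lists described singly were chosen after their counts were seen. So were the alternatives for list counts. Lists are matched by symbol patterns. Named are the 12 genes in each direction with their own symbol, past the average and both gonad tests, that had the largest value of the smaller absolute change, up to 4 called members of a list with the lowest p, list members needed to describe it, nr5a1, and 2 genes without symbol in each direction.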

Additional observations from a re-analysis of the deposited data

Results flagged for a closer look

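In 35 genes named in the text, 29 of them among the 107 taken by the naming rule and 6 described with their lists, the change between labels differed between testis and ovary (interaction term, edgeR quasi-likelihood test, Benjamini-Hochberg adjusted p under 0.05, 3 libraries a group). The sign was shared in all of these but cyp19a1a, per2 and bhlhe40. Values are the testis change minus the ovary change on the log2 scale. Of the genes named for the largest shared changes, the difference was 2.99 for CFI, 4.35 for agt, 2.92 for kcnh4b and 1.88 for trpc2b. It was 5.55 for si:ch73-194h10.2, 1.59 for apoeb, -1.55 for ptgdsb.1 and 0.63 for brox. For si:zfos-1011f11.1 it was 8.67, a fitted value that depends on the prior count, since all suppressed-labelled ovary libraries were at 0 counts.

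Among clock, stress hormone and immediate early genes the difference was 1.62 for fbxl3b, 1.39 for arntl2 and -0.77 for nr1d2a. For the others of the clock list it was -1.14 for tefb, -1.16 for BHLHE40, -1.62 for bhlhe40 and -1.96 for per2. It was -3.40 for ddit4, -1.64 for klf9, -1.34 for socs3b and 1.63 for hsd11b2. Among mitochondrial genes it was 0.35 for atp5o, -1.67 for mrps23, -0.66 for mrps5 and 0.85 for mrpl46. Among lipid, gonad and signal genes it was 1.51 for fads2, 1.05 for elovl7a, -2.47 for clu, -1.47 for dmrt1 and -3.01 for pdgfaa. Among matrix, immune and chaperone genes it was 1.32 for mgp, 2.49 for itgb2, 1.52 for psmb12 and -1.66 for calr3a. It was 1.27 for cyp19a1a and -0.41 for prc1b. Of the genes above, mrps23 and mrps5 encode mitochondrial ribosomal proteins with changes of 0.14 (SE 0.17) in testis and 1.79 (SE 0.11) in ovary, and of 0.17 (SE 0.12) in testis and 0.80 (SE 0.10) in ovary.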

How the results depend on the processing

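Genes that rose and fell on average (1595 and 1320) were 812 and 2281 with total-count scaling, 876 and 2297 by limma on log2(FPKM + 1), 851 and 2193 with a pseudocount of 0.1, and 1071 and 853 at an FPKM of at least 5. Genes higher and lower past both gonad tests (179 and 194) were 119 and 306, 124 and 290, 122 and 268 and 102 and 119 in the same order, and 359 and 364 by DESeq2, which kept 372 of the 373. With total-count scaling 312 of the 373 were kept. Stricter filters test fewer genes; for the other settings the cause was not tested. The other settings of these counts and of the 2006 genes that differed between the gonads stayed within 1.5 times, apart from the replicate block. Genes whose labels did not overlap in either gonad were 415 higher and 1115 lower in deposited FPKM, against 816 and 669 on TMM-scaled counts. Leaving out 1 library gave 1165 to 1857 risen and 1008 to 1562 fallen genes on average, 35 to 350 higher and 49 to 338 lower past both tests, and 1450 to 2833 that differed. The average nr5a1 difference ran from -0.014 to 0.433; it reversed without suppressed-labelled testis replicate 1 (-0.005) or 2. Over the 107 named genes and all alternatives, 2254 average changes kept the call, 61 lost it and 0 reversed. The call in both gonads was lost more often: for the 60 named genes that had it, it was lost in 140 of 720 fits without 1 library and held in all 12 for 25 genes.

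The labels do not say whether the replicate numbers pair libraries. Deviations of same-numbered libraries correlated at -0.45, -0.04, -0.51 in testis and -0.09, -0.17, -0.23 in ovary. These values gave no sign of pairing within a gonad. With 3 libraries a group, whose deviations depend on each other, they cannot settle it. With the number as a replicate block 1284 and 1127 genes rose and fell on average, 27 and 25 were higher and lower past both gonad tests, and 1556 differed between the gonads. Of the lists, 12 in place of 19 mitochondrial ribosomal, 3 in place of 5 steroid and 3 in place of 6 stroma genes rose.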
